A study of Mus musculus with 6 samples.

Results

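The genes examined were those of the retromer and of the wider VPS, sorting nexin, WASH and ESCRT machinery, measured in mPASMCs, the smooth muscle cells of the mouse pulmonary artery. They were chosen by gene symbol: protein-coding genes named *Vps*, *Snx*, *Washc* or *Chmp* with a number, together with *Hgs*, *Stam*, *Stam2* and *Tsg101*. This pattern picked out 84 of the 55487 genes in the table, which holds 21936 protein-coding genes. *Vps26a* was selected on its fold change in the comparison described here, so its values are given as a description without a test. RNA sequencing compared mPASMCs transfected with si-*Snhg18*, a small interfering RNA against the long noncoding RNA *Snhg18*, with cells that received the control siRNA si-NC, and there were 3 libraries in each group. The same siRNA is named for every si-*Snhg18* library. Effects of losing *Snhg18* and effects of this siRNA on other RNAs therefore cannot be told apart. The labels give the si-NC cells the genotype Control, and they state neither the oxygen level nor the time after transfection, nor whether the libraries of a group came from separate cultures. The p-values therefore measure the spread between these libraries, which may be technical. Levels are given as CPM, reads of a gene relative to the library total, in the usual CPM unit, with totals scaled by the trimmed mean of M-values (TMM), and differences as log2 fold changes of si-*Snhg18* over si-NC, with their standard errors (SE).

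Endosomes sort membrane proteins that have been taken up or delivered to them. The retromer, built of VPS35, VPS29 and a VPS26 subunit, gathers cargo on the endosome and returns it to the trans-Golgi network or the cell surface, with sorting nexins that bind phosphoinositides and bend the membrane and the WASH complex that nucleates branched actin. Cargo that is not retrieved is packed by the ESCRT complexes into intralumenal vesicles for the lysosome, and the tethering complexes CORVET and HOPS bring endosomes and lysosomes together for fusion. In vascular smooth muscle, as in other cells, this traffic sets how long receptors, integrins and transporters stay at the surface.

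The libraries held 18097718 to 25988746 counted reads, and a floor of 3 reads was worth 0.115 to 0.164 CPM. The targeted *Snhg18* was at 23.5, 22.4 and 22.2 CPM in the si-NC libraries and at 10.6, 11.2 and 9.97 CPM in the si-*Snhg18* libraries. The groups did not overlap, and the level fell to 46.7% of si-NC (log2 fold change -1.10 ± 0.10, adjusted p = 0.00727 in edgeR's quasi-likelihood test). Each si-*Snhg18* library therefore matched its label. The 6 smooth muscle markers (*Acta2*, *Tagln*, *Myh11*, *Cnn1*, *Smtn* and *Myocd*) were all detected. Their summed level, mainly *Acta2* and *Tagln*, was 1719 to 1848 CPM in si-NC and 1189 to 1809 CPM in si-*Snhg18*. *Tagln* fell (log2 fold change -0.51 ± 0.11, edgeR adjusted p = 0.0427). *Cnn1* was also lower in every si-*Snhg18* library (-0.48 ± 0.13, edgeR adjusted p = 0.0812). *Acta2*, *Myh11*, *Smtn* and *Myocd* had log2 fold changes of -0.22, -0.60, 0.004 and 0.39. *Myocd* was low, at means of 1.06 CPM in si-NC and 1.38 CPM in si-*Snhg18*. Summed endothelial markers, mainly *Cdh5*, stood at 11.0 to 12.4 and 11.2 to 12.2 CPM. Leukocyte markers, mainly *Csf1r* and *Cd68*, stood at 7.19 to 10.5 and 6.00 to 12.1 CPM. Epithelial markers were at 7.20 to 22.3 CPM in si-NC and 1.31 to 7.31 CPM in si-*Snhg18*. This sum was almost wholly *Krt18* (7.25, 22.1 and 6.95 CPM in si-NC, 0.989, 7.27 and 2.25 CPM in si-*Snhg18*). *Epcam*, *Cdh1*, *Sftpc* and *Cldn18* had too few reads to be tested. The fibroblast list, carried mainly by *Pdgfra*, was at 461 to 543 and 325 to 464 CPM, and the part of these marker levels in the results below was not tested. In bulk RNA, fewer cells of a kind and less RNA per cell cannot be told apart.

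The 250 bases in front of the transcription start are shown for the 3 *Vps26* paralogs, for *Vps29* and for *Snx8*, because these genes carried falls of the retromer and the retriever and the largest rise. The sequences are those of RefSeq on GRCm38.p6, written 5′ to 3′ on the strand of the gene. The windows are chr10:62486806-62487055 on the minus strand for *Vps26a*, chr9:27030095-27030344 on the minus strand for *Vps26b* and chr16:94526630-94526879 on the minus strand for *Vps26c*. That of *Vps29* is chr5:122354078-122354327 on the plus strand and that of *Snx8* is chr5:140389309-140389558 on the minus strand. The RefSeq start of *Vps26c* lies 201 bases inside the gene as the count table lists it, and those of the other 4 genes lie 0 to 46 bases outside. Capitals mark GGGCGG (the GC box bound by Sp-family factors), CACGTG (the E-box), TCACGTGA (an extended palindrome that contains CACGTG) and CCGGAAGT (a motif of Ets factors), each on either strand, so that CCGCCC and ACTTCCGG are the reverse complements of the first and the last.
Vps26a: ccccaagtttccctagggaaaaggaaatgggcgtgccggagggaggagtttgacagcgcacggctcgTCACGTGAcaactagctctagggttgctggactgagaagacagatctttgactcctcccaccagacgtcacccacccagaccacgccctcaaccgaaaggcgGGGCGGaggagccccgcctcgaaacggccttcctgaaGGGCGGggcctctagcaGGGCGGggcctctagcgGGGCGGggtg
Vps26b: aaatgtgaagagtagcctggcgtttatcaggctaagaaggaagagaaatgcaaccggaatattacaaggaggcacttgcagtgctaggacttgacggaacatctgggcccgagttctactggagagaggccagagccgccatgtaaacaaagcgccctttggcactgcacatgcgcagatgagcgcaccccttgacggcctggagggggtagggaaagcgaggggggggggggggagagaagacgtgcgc
Vps26c: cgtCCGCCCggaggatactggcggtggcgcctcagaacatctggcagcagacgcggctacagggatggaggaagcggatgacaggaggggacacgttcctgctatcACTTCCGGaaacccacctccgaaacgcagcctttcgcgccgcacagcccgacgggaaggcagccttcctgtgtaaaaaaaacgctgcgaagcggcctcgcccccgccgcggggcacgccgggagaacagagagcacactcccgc
Vps29: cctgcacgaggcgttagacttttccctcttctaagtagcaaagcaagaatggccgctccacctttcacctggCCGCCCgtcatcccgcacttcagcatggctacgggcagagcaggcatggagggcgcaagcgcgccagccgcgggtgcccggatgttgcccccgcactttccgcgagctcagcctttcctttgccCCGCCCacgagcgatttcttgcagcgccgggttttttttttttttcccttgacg
Snx8: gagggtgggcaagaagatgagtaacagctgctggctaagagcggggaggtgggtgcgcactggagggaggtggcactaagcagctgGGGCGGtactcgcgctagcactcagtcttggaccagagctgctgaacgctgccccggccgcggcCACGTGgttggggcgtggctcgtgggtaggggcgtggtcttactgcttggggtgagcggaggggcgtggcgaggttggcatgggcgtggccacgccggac

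The window of *Vps26a* held 4 GC boxes and 1 TCACGTGA palindrome, and that of *Snx8* held 1 CACGTG and 1 GC box. *Vps29* had 2 GC boxes, *Vps26c* had 1 GC box and 1 CCGGAAGT, and *Vps26b* had none of the motifs searched. Of the 84 genes, 57 had a window of this length in the RefSeq table, against 16801 protein-coding genes in all and 10066 of the tested genes. TCACGTGA was present in 4 of the 57 windows (7.02%), those of *Vps26a*, *Vps16*, *Vps33a* and *Washc2*, compared with 1.04% of all windows and 1.55% of those of tested genes. CACGTG was found in 12.3% of the 57 windows, against 6.79% of all and 8.42% of tested genes. The GC box was in 61.4% of them, close to the 60.5% of tested genes, and CCGGAAGT in 12.3%, against 6.06%. TGACGTCA, the cyclic AMP response element, was in 0 of the 57 and in 2.82% of the windows of tested genes. A match describes these letters only.

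*Vps26a* (ENSMUSG00000020078) encodes the main arrestin-fold subunit of the retromer and lies on the minus strand of chromosome 10 (62455235 to 62486805, GRCm38). Its level was 163, 157 and 163 CPM in the si-NC libraries and 83.1, 76.0 and 72.7 CPM in the si-*Snhg18* libraries. The 3 si-*Snhg18* libraries lay far below the 3 si-NC libraries and close to each other. The means were 161 ± 3.33 and 77.3 ± 5.28 CPM (SD, n = 3), which is 48.0% of si-NC and a log2 fold change of -1.06 ± 0.07. This fold change was the lowest of the 80 genes that could be tested, and 1.88% of the 14531 tested genes lay below it.

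Its paralog *Vps26b* (chromosome 9, 27007771 to 27030065), which can take the place of *Vps26a* in the complex, was at 55.9, 54.8 and 61.0 CPM in si-NC and at 40.3, 36.4 and 40.5 CPM in si-*Snhg18*. The groups did not overlap, and *Vps26b* fell to 68.2% of si-NC (log2 fold change -0.55 ± 0.08, edgeR adjusted p = 0.0187). *Vps29* (chromosome 5, 122354369 to 122364984), a small subunit with a phosphoesterase fold that docks on VPS35, measured 96.7, 97.1 and 101 CPM in si-NC. Its si-*Snhg18* libraries were at 84.6, 76.8 and 74.4 CPM, all lower than every control. The decline to 80.1% of si-NC passed the threshold narrowly (log2 fold change -0.32 ± 0.07, edgeR adjusted p = 0.0488), and it did not pass with RLE factors, in limma-voom or without a filter on low counts. *Vps29* shares 5.5% of its exon bases with *Fam216a* on the opposite strand, and *Fam216a* had a log2 fold change of -0.38. The strand setting of the counts is not given, and the part of this overlap in the value of *Vps29* was not tested.

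*Vps35* (chromosome 8, 85260392 to 85299802), the long solenoid on which the other subunits assemble, was at 278, 262 and 268 CPM in si-NC and at 277, 271 and 256 CPM in si-*Snhg18*. The ranges overlapped, with si-*Snhg18* 3 below the controls (270 ± 8.17 and 268 ± 10.9 CPM), and the log2 fold change was -0.01 ± 0.06 (edgeR adjusted p = 0.942). The core of the retromer thus held 2 tested falls beside the described fall of *Vps26a*, where 3.71% of all tested genes were called lower. Of the fits with 1 library left out, 1 kept the call of *Vps26b* and 1 that of *Vps29*. The level of the scaffold gene *Vps35* differed by less than the spread between libraries.

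The retriever is a related complex in which VPS26C and VPS35L take the places of VPS26 and VPS35, and it recycles integrins and other surface proteins. *Vps26c* (chromosome 16, 94497783 to 94526830) was at 66.0, 63.7 and 60.2 CPM in si-NC and at 43.2, 46.5 and 45.0 CPM in si-*Snhg18*. All si-*Snhg18* libraries were lower, and the level fell to 70.9% (log2 fold change -0.50 ± 0.07, edgeR adjusted p = 0.0172). *Vps35l* behaved like *Vps35* in its values, with 107, 113 and 113 CPM in si-NC and 115, 110 and 109 CPM in si-*Snhg18* (log2 fold change 0.01 ± 0.06, adjusted p = 0.961). The 3 arrestin-fold genes *Vps26a*, *Vps26b* and *Vps26c* were each lower in every si-*Snhg18* library, as was *Vps29* of the retromer. Over all tested genes 15.5% were lower in this way, and *Vps26a* was selected on its fold change. The ranges of both solenoid genes overlapped between the groups.

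**Figure D1:**
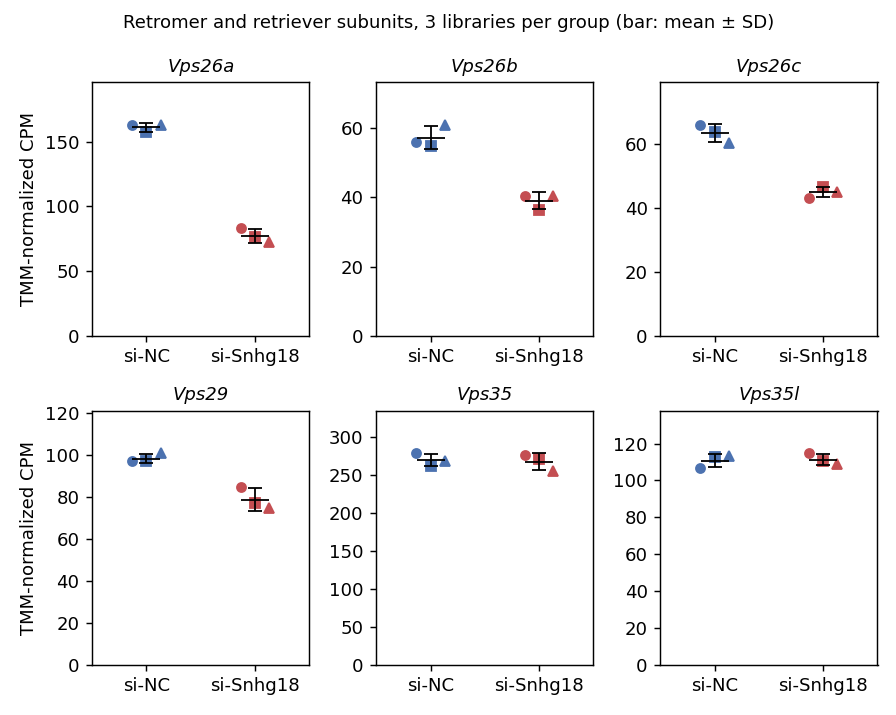
TMM-normalized CPM of the 4 retromer core genes and the 2 retriever genes in each library (circle, square and triangle: libraries 1, 2 and 3; black bars: mean ± SD, n = 3 per group; axes start at 0). The si-*Snhg18* points of *Vps26a*, *Vps26b*, *Vps26c* and *Vps29* lie below all si-NC points, and those of *Vps35* and *Vps35l* overlap with them.

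Per kb of exon, *Vps26a* was the more abundant of the 2 retromer paralogs, at 62.0 ± 1.28 CPM per kb in si-NC against 16.0 ± 0.93 CPM per kb for *Vps26b*. The level of *Vps35* was 77.6 CPM per kb and that of *Vps29* 36.1 CPM per kb. *Vps26a* made up 80.0%, 79.8% and 78.6% of the sum of both paralogs in the si-NC libraries and 73.9%, 74.2% and 71.2% in the si-*Snhg18* libraries. The sum of both went from 78.0 ± 2.05 to 40.7 ± 2.24 CPM per kb (SD, n = 3), so that in si-NC it was close to the level of *Vps35* and in si-*Snhg18* below it. Both figures rest on *Vps26a* and carry no test.

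Of all 84 genes, 80 passed the filter on low counts. The 4 others were *Vps25* of ESCRT-II and the sorting nexins *Snx20*, *Snx22* and *Snx31*, each with at most 12 reads in any library. The count of *Vps25* is uncertain, because 67.2% of its exon bases are shared with *Ramp2* on the same strand. *Hgs*, which was tested, shares 97.2% of its exon bases with another annotated gene of the same name and strand, which was not tested. The 80 genes were well measured: their median level was 55.7 CPM against 19.2 CPM over all tested genes, and their median coefficient of variation in si-NC was 4.91% against 10.9%. The highest levels per length in si-NC were those of *Chmp4b* (140 CPM per kb), which forms ESCRT-III filaments, *Snx9* (120 CPM per kb), which works with dynamin in endocytosis, and *Chmp3* (109 CPM per kb). *Snx3*, which sorts the Wnt carrier WLS together with the retromer, followed with 102 CPM per kb. *Chmp4c*, *Snx29* and *Vps37d* were the lowest, at 1.72, 1.83 and 2.23 CPM per kb. By group, the median was highest for the retromer core (49.1 CPM per kb), the retromer-linked sorting nexins (44.4) and ESCRT-III (41.2), and lowest for the VPS13 lipid transfer proteins (4.68).

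**Figure D2:**
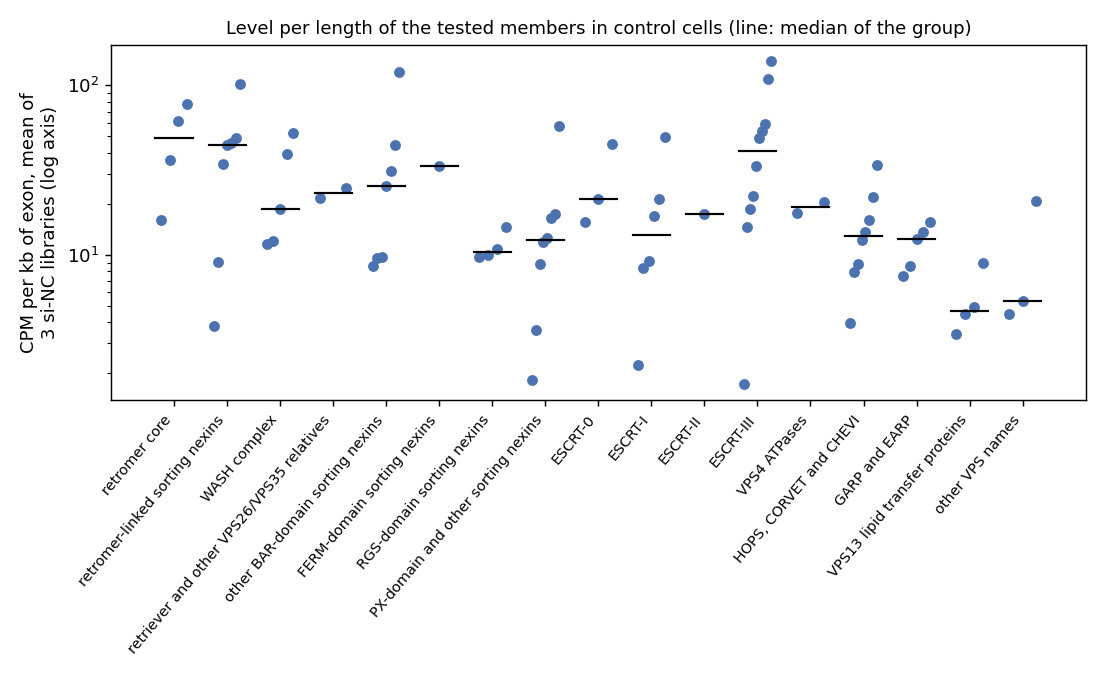
Level per length in si-NC (CPM per kb of exon, mean of 3 libraries, log axis) of the 80 tested genes, arranged by complex or family, with a line at each group's median. The retromer core has a median of 49.1 CPM per kb, the VPS13 genes one of 4.68, and within ESCRT-III the genes span 1.72 to 140.

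*Vps26a* aside, 4 of 79 genes fell (5.06%) and 4 rose (5.06%) at an adjusted p under 0.05, beside 3.71% and 3.65% of all 14531 tested genes. Of the 12697 tested protein-coding genes, 4.13% fell and 4.07% rose. Both shares of the 79 genes were near the background. The falls were *Vps26b*, *Vps26c*, *Vps29* and *Chmp5*, and the rises *Snx8*, *Vps9d1*, *Snx15* and *Vps41*. The groups did not overlap in 9 genes that were lower in every si-*Snhg18* library (11.4%) and in 24 that were higher in every one (30.4%), while 15.5% and 15.4% of all tested genes did so. Of the tested protein-coding genes, 16.4% and 16.2% did so. Among the 80 genes, 53 log2 fold changes were above 0 and 27 below (66.3% above, against 50.8% of all tested genes), and the median was 0.11 against 0.01. Most differences were small, since 67.5% lay within 0.25 of 0 on the log2 scale, compared with 50.6% of all tested genes. An unadjusted p under 0.05 was found for 27 of the 79 genes, and for 24.9% of all tested genes. These shares describe genes whose choice was made with results known. Without the library si-NC 1, si-NC 3 or si-*Snhg18* 3, 0 members and 0 genes overall passed the adjusted threshold in edgeR, and 14, 20 and 18 of the members then had an unadjusted p under 0.05 (17.3%, 24.7% and 22.5%), beside 16.8%, 18.3% and 16.6% of all genes in those fits. Without si-*Snhg18* 2, 9 of 80 members were lower, *Vps26a* among them, and 12 higher, beside 11.7% and 10.4% of all genes in that fit. The members counted in these fits with a library left out include *Vps26a*, which was selected on its fold change.

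Deviations from the group means correlated between libraries with the same number, most for number 2 (r of 0.742), so the comparison was also fitted with the library number as a block. Whether libraries of differing numbers correlated was not examined, so these correlations do not establish pairing for every number. With the block, 6 of the 79 genes fell (7.59%) and 16 rose (20.3%), beside 13.6% lower and 13.6% higher among all tested genes. All 8 genes named above were among them. The 14 genes that passed in edgeR only with the block were *Snx5* and *Chmp3*, which fell, and *Snx7*, *Washc2*, *Washc4*, *Vps33a*, *Vps11*, *Vps37c*, *Snx17*, *Stam*, *Snx30*, *Snx11*, *Snx13* and *Chmp4b*, which rose. Of these, *Stam* and *Vps33a* also passed in DESeq2 without a block. Their adjusted p-values are given with and without the block in the following paragraphs.

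**Figure D3:**
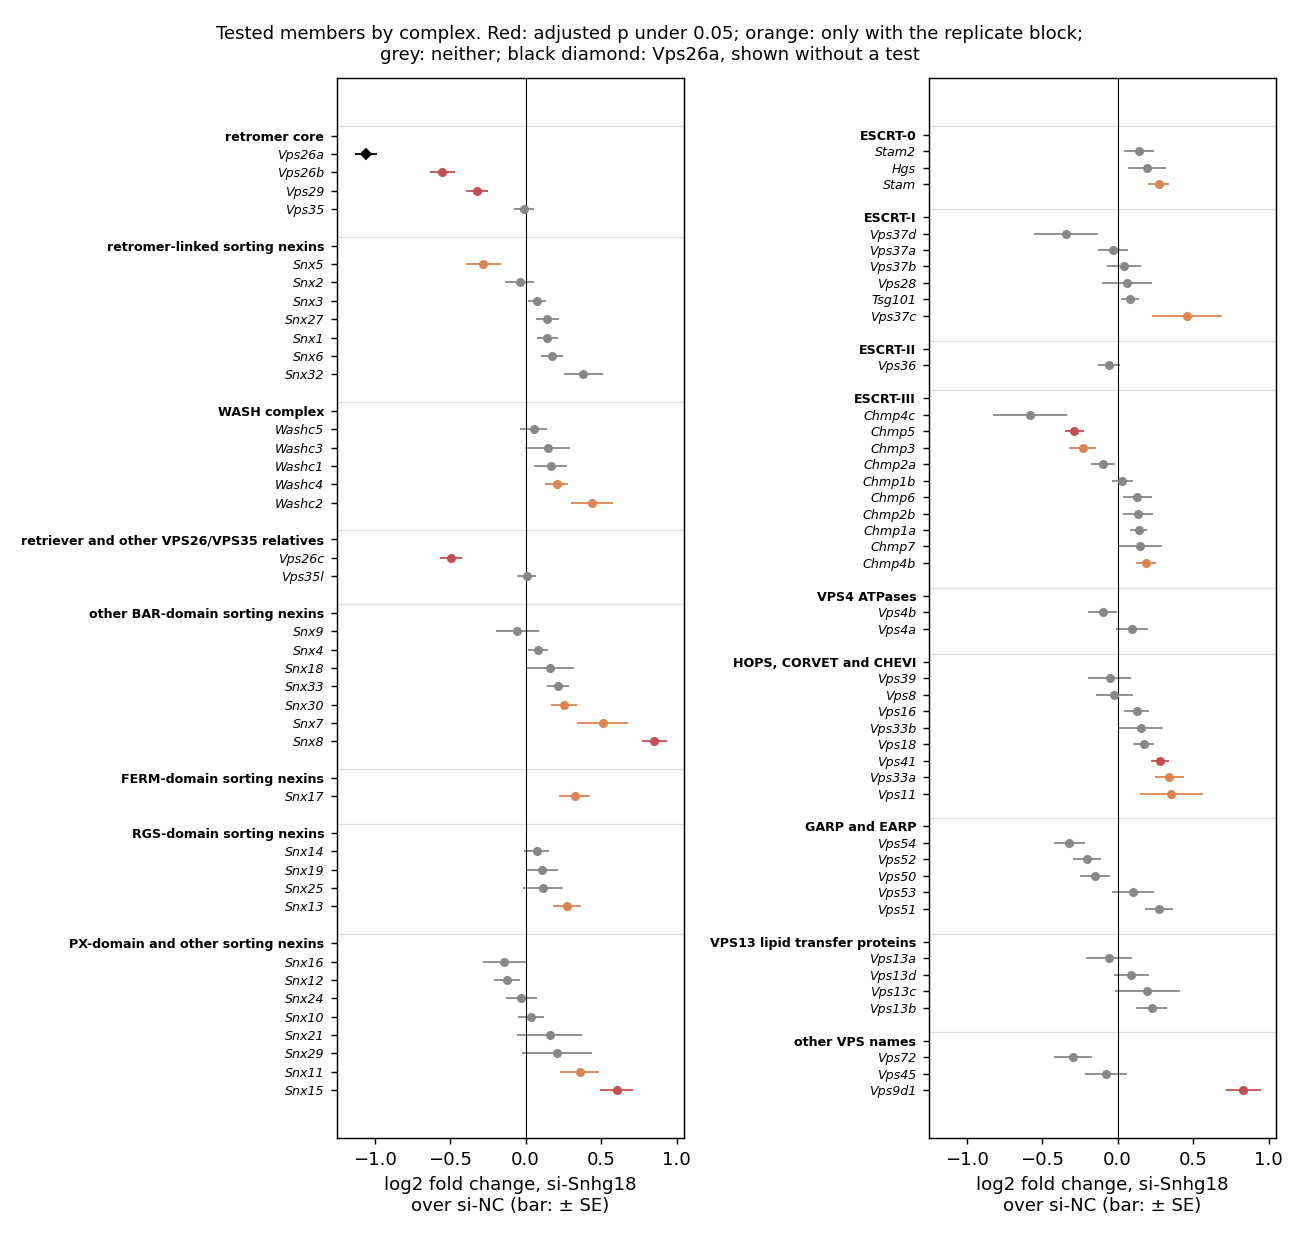
Log2 fold change of si-*Snhg18* over si-NC (points, with bars of ± 1 SE) for the 80 tested genes, sorted within each complex or family. Red points passed an adjusted p of 0.05 in edgeR without the block, orange points only with it and grey points with neither, and the black diamond is *Vps26a* at -1.06, the lowest value, while *Snx8* at 0.85 is the highest.

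Among the 7 sorting nexins that work with the retromer (*Snx1*, *Snx2*, *Snx3*, *Snx5*, *Snx6*, *Snx27* and *Snx32*), 0 passed without the block in edgeR, DESeq2 or limma-voom, 3 had an unadjusted p under 0.05 in edgeR, and 1 was lower with the block. Over all tested genes these shares were 24.9% and 13.6%, as for the groups below. *Snx5*, a membrane-bending partner of SNX1 and SNX2, was at 123, 135 and 113 CPM in si-NC and 92.5, 117 and 95.6 CPM in si-*Snhg18*. It was lower in each numbered pair although the groups overlapped (log2 fold change -0.28 ± 0.12, adjusted p = 0.198 without and 0.0169 with the block). *Snx6* and *Snx32*, which fill the same place as *Snx5*, had log2 fold changes of 0.18 ± 0.07 and 0.38 ± 0.13 (adjusted p = 0.189 and 0.126). Per length, *Snx5* made up 49.8 ± 2.00% of the sum of these 3 genes in si-NC and 41.7 ± 2.88% in si-*Snhg18* (SD, n = 3). *Snx3* was at 141, 147 and 141 CPM in si-NC and 150, 154 and 147 CPM in si-*Snhg18*, a log2 fold change of 0.07 ± 0.06.

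The WASH complex, which the retromer recruits to the endosome, had log2 fold changes above 0 in all 5 genes, but 0 passed without the block in edgeR, DESeq2 or limma-voom, 2 had an unadjusted p under 0.05 in edgeR (24.9% of all tested genes), and 2 were higher with the block (13.6% of all tested genes). *Washc2*, the large subunit that binds VPS35, was at 177, 151 and 179 CPM in si-NC and at 267, 189 and 231 CPM in si-*Snhg18*. Every si-*Snhg18* library was higher, with a wide spread that followed the library number (log2 fold change 0.44 ± 0.14, adjusted p = 0.114 without and 0.00504 with the block). *Washc4* had a smaller difference (0.21 ± 0.08, adjusted p = 0.157 and 0.0340). *Washc5*, the most highly expressed of the complex, was at 210 ± 16.6 and 218 ± 14.4 CPM, a log2 fold change of 0.05 ± 0.09.

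Of the other sorting nexins with a BAR domain, which curve membranes, *Snx8* had the largest rise of all 80 genes. *Snx8* (chromosome 5, 140340299 to 140389262, minus strand), which has been placed on the route from endosome to Golgi, was at 22.6, 23.7 and 21.5 CPM in si-NC and at 42.7, 39.8 and 39.8 CPM in si-*Snhg18*. The groups were far apart and each was tight, and *Snx8* rose to 180% of si-NC (log2 fold change 0.85 ± 0.08, edgeR adjusted p = 0.00761). *Snx7* and *Snx30*, which pair with SNX4 in recycling and autophagy, passed only with the block. For *Snx7* the values were 92.5, 77.8 and 98.3 CPM in si-NC and 152, 100 and 130 CPM in si-*Snhg18* (log2 fold change 0.51 ± 0.17, adjusted p = 0.122 without and 0.00502 with the block), and for *Snx30* the log2 fold change was 0.26 ± 0.08 (0.125 and 0.0492). The group's highest level per length was that of *Snx9*, which was at 421, 338 and 436 CPM in si-NC and 427, 320 and 405 CPM in si-*Snhg18*, with a log2 fold change of -0.05 ± 0.14. The 3 remaining genes, *Snx4*, *Snx18* and *Snx33*, had log2 fold changes of 0.08, 0.16 and 0.22, and passed in neither fit.

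*Snx15* (chromosome 19, 6119399 to 6128304), which joins a phosphoinositide-binding PX domain to a MIT domain, was at 20.9, 19.6 and 21.0 CPM in si-NC. In si-*Snhg18* it reached 34.0, 27.1 and 32.5 CPM, above every control, and rose to 152% (log2 fold change 0.60 ± 0.11, edgeR adjusted p = 0.0305). It was the one gene of the 8 tested in its group of PX-domain and other sorting nexins to pass without the block, and *Snx11* passed with it (0.36 ± 0.13, adjusted p = 0.150 and 0.0244). *Snx12* was the most highly expressed of that group, at 64.4 ± 2.14 and 59.1 ± 5.51 CPM (log2 fold change -0.12 ± 0.09). *Snx17*, a FERM-domain nexin that hands integrin cargo to the retriever, was at 68.7, 63.2 and 71.6 CPM in si-NC and 93.5, 74.1 and 87.2 CPM in si-*Snhg18*. All 3 si-*Snhg18* libraries were higher, and *Snx17* passed only with the block (0.32 ± 0.10, adjusted p = 0.118 and 0.0126). The 4 nexins grouped as the RGS family (*Snx13*, *Snx14*, *Snx19* and *Snx25*) had log2 fold changes between 0.07 and 0.27. Of these, *Snx13* was the one that passed with the block (0.27 ± 0.09, adjusted p = 0.123 and 0.0260). *Snx25* was the most highly expressed of them per length (0.11 ± 0.14).

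Of the ESCRT genes, *Chmp5* alone passed in edgeR without the block. *Chmp5* (chromosome 4, 40948407 to 40965303), an ESCRT-III protein that regulates the VPS4 ATPases through VTA1, was at 91.9, 85.9 and 91.6 CPM in si-NC and at 74.9, 73.3 and 72.6 CPM in si-*Snhg18*. The si-*Snhg18* libraries lay close together below all controls, and *Chmp5* fell to 82.0% (log2 fold change -0.29 ± 0.06, edgeR adjusted p = 0.0447), a call that was lost in limma-voom and without the filter. *Chmp3*, at 106, 114 and 107 CPM in si-NC and 84.9, 104 and 90.1 CPM in si-*Snhg18*, passed with the block only (-0.23 ± 0.09, adjusted p = 0.180 and 0.0291). *Chmp4b*, the main filament subunit, went the other way, from 222, 209 and 209 CPM to 254, 239 and 237 CPM, and also passed with the block only (0.19 ± 0.06, adjusted p = 0.135 and 0.0358). The low *Chmp4c* was at 7.08, 7.15 and 7.29 CPM in si-NC and 4.15, 6.57 and 3.62 CPM in si-*Snhg18*, with si-*Snhg18* 2 near the controls, and did not pass in either fit (-0.58 ± 0.24, adjusted p = 0.204 and 0.0645). The other 6 ESCRT-III genes (*Chmp1a*, *Chmp1b*, *Chmp2a*, *Chmp2b*, *Chmp6* and *Chmp7*) had log2 fold changes between -0.09 and 0.15. ESCRT-III thus held values of both signs, 6 above 0 and 4 below.

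Of ESCRT-0, which binds ubiquitinated cargo, *Stam* was higher in each si-*Snhg18* library and passed with the block and in DESeq2 (78.3 ± 2.78 to 94.5 ± 5.24 CPM, 0.27 ± 0.07, edgeR adjusted p = 0.0707 without and 0.0131 with the block). *Hgs*, its partner, was at 139, 117 and 137 CPM in si-NC and 170, 127 and 153 CPM in si-*Snhg18*, and had an adjusted p of 0.384 without and 0.0528 with the block (0.20 ± 0.13). Within ESCRT-I, *Tsg101*, the subunit that recognizes viral and cellular budding motifs, was at 96.6 ± 1.29 and 102 ± 2.75 CPM (0.08 ± 0.06, adjusted p = 0.431). *Vps37c*, one of its 4 alternative partners, was at 44.0, 32.8 and 43.6 CPM in si-NC and 67.3, 37.9 and 60.4 CPM in si-*Snhg18*. Here the libraries numbered 2 were the lowest of both groups, and the adjusted p was 0.275 without and 0.0132 with the block (0.46 ± 0.23). *Vps36* of ESCRT-II and the ATPases *Vps4a* and *Vps4b*, which take ESCRT-III apart, had log2 fold changes of -0.06 ± 0.07, 0.10 ± 0.11 and -0.10 ± 0.10.

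*Vps41* alone of the 8 genes of the tethering complexes HOPS, CORVET and CHEVI passed in edgeR without the block. *Vps41* (chromosome 13, 18717286 to 18866811), which gives HOPS its hold on late endosomes and lysosomes, was at 108, 110 and 109 CPM in si-NC and at 129, 132 and 136 CPM in si-*Snhg18*. The control libraries were almost level, all si-*Snhg18* libraries were higher, and *Vps41* rose to 122% (log2 fold change 0.28 ± 0.06, edgeR adjusted p = 0.0389), a call that was lost without the filter on low counts. *Vps33a*, the SM protein of HOPS and CORVET that guides SNARE assembly, was at 74.2, 62.4 and 68.1 CPM in si-NC and 93.7, 80.6 and 85.4 CPM in si-*Snhg18* (0.34 ± 0.09, adjusted p = 0.0816 without and 0.00566 with the block). *Vps11*, a core subunit of both complexes, was at 86.7, 61.8 and 85.6 CPM in si-NC and 123, 75.7 and 101 CPM in si-*Snhg18*. The groups of *Vps11* overlapped, each pair differed the same way, and the adjusted p was 0.340 and 0.0121 (0.36 ± 0.21). In DESeq2, *Vps33a* passed beside *Vps41*. The 5 others (*Vps8*, *Vps16*, *Vps18*, *Vps33b* and *Vps39*) had log2 fold changes between -0.05 and 0.17 and passed in neither edgeR fit.

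**Figure D4:**
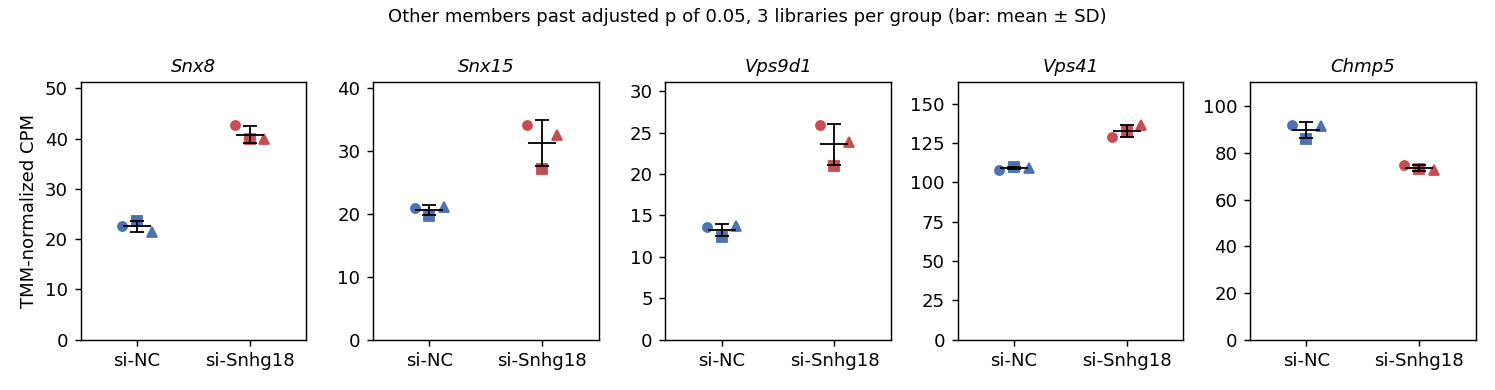
TMM-normalized CPM in each library of the 5 genes outside the retromer and retriever that passed an adjusted p of 0.05 without the block (circle, square and triangle: libraries 1, 2 and 3; black bars: mean ± SD, n = 3 per group; axes start at 0). *Snx8*, *Snx15*, *Vps9d1* and *Vps41* are higher in every si-*Snhg18* library and *Chmp5* is lower in every one, with means of 89.8 and 73.6 CPM for *Chmp5*.

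The symbols *Vps9d1*, *Vps72* and *Vps45* belong to no complex above. *Vps9d1* (chromosome 8, 123242356 to 123254348), named for a VPS9 domain of the kind that activates Rab5-type GTPases, was at 13.6, 12.4 and 13.7 CPM in si-NC and at 25.9, 21.0 and 23.8 CPM in si-*Snhg18*. The groups did not overlap, and *Vps9d1* rose to 178% (log2 fold change 0.83 ± 0.12, edgeR adjusted p = 0.0149). *Vps72*, a chaperone of the histone variant H2A.Z and no endosomal protein, was lower in each si-*Snhg18* library at 30.4 ± 1.15 and 24.8 ± 3.76 CPM, without passing (-0.30 ± 0.12, adjusted p = 0.204). The 5 genes of GARP and EARP, which tether endosome-derived vesicles at the Golgi and at recycling endosomes, gave 0 calls in edgeR with or without the block and 0 in DESeq2 and limma-voom, and 2 of the 5 had an unadjusted p under 0.05 in edgeR, beside 24.9% of all tested genes. *Vps54* of GARP was at 37.2 ± 1.84 and 29.9 ± 3.04 CPM (-0.32 ± 0.10, adjusted p = 0.117 and 0.0524), while *Vps51*, shared by both, had a log2 fold change of 0.27 ± 0.09 (adjusted p = 0.131). *Vps51* shares 11.8% of its exon bases with *Tm7sf2* on the same strand, and *Tm7sf2* had a log2 fold change of 0.29. *Vps53*, the most highly expressed of the 5 per length, was at 44.2 ± 4.45 and 47.5 ± 7.65 CPM. The 4 *Vps13* genes, whose products move lipids between membranes, had log2 fold changes from -0.06 to 0.23, and 0 of them passed in edgeR, DESeq2 or limma-voom, with 0 at an unadjusted p under 0.05 in edgeR.

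**Figure D5:**
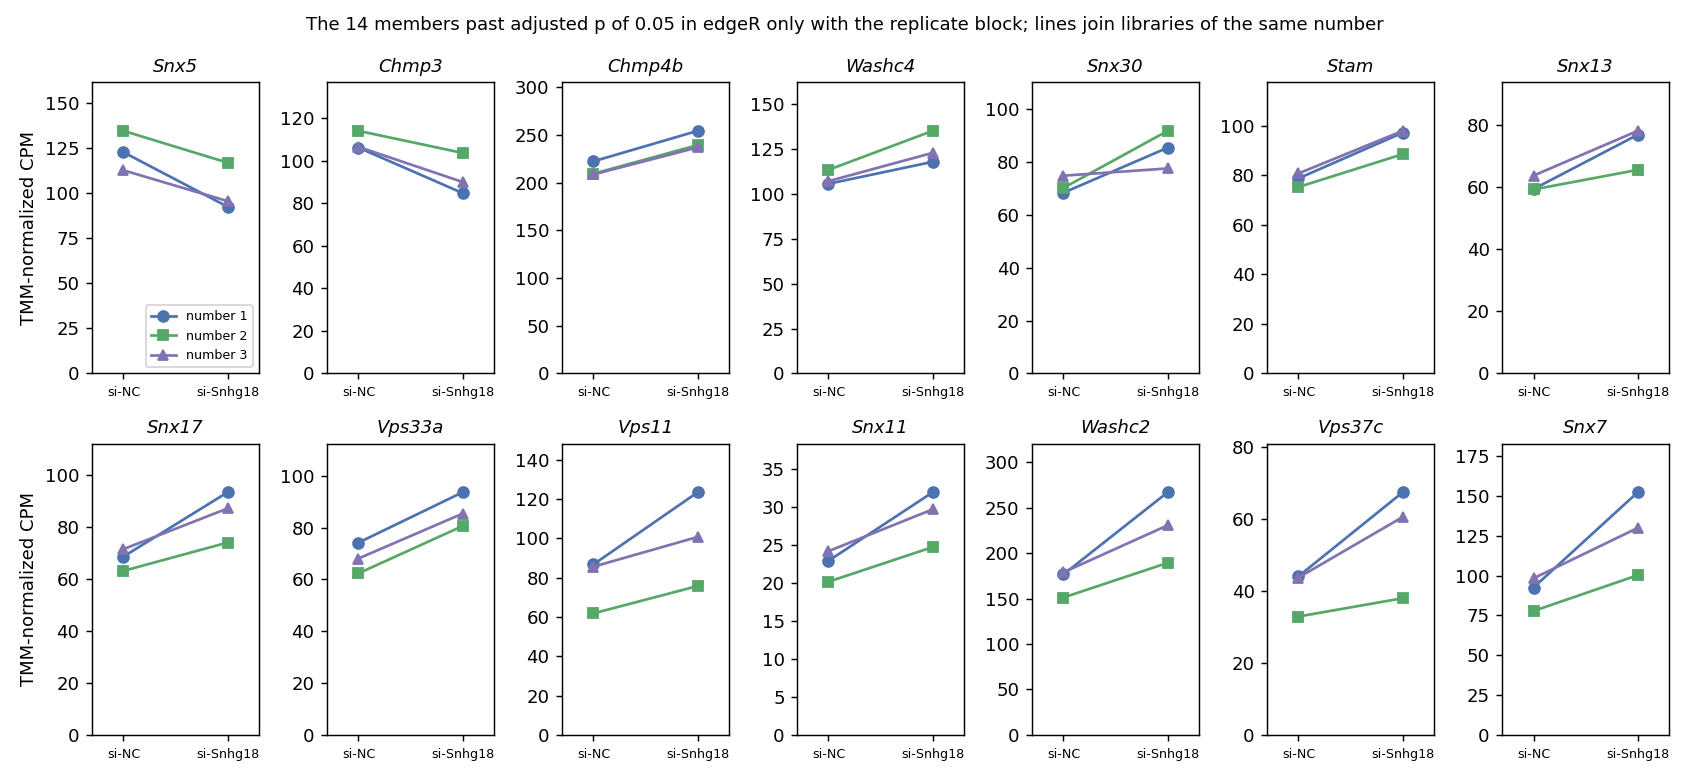
TMM-normalized CPM of the 14 genes that passed an adjusted p of 0.05 in edgeR only with the replicate block (lines join the si-NC and si-*Snhg18* library of the same number; axes start at 0). In each gene all 3 lines slope the same way, down for *Snx5* and *Chmp3* and up for the other 12, while for *Vps11* and *Vps37c* the 2 libraries numbered 2 lie lowest.

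The symbol pattern leaves out many genes that act with these complexes, so 62 of them were also read out: Rab GTPases and their effectors, phosphoinositide enzymes, further ESCRT proteins, the Commander subunits that carry the retriever, retromer cargo and recycling proteins. Of the 60 tested, 1 fell (1.67%) and 2 rose (3.33%) without the block, beside 3.71% and 3.65% of all tested genes. With the block 10 fell (16.7%) and 14 rose (23.3%), beside 13.6% and 13.6%. *Rab5b*, a GTPase of early endosomes, fell from 122 ± 1.81 to 97.8 ± 5.32 CPM (-0.32 ± 0.07, edgeR adjusted p = 0.0391). *Rabep1*, a Rab5 effector, rose from 65.2 ± 2.51 to 96.7 ± 13.9 CPM (0.57 ± 0.11, adjusted p = 0.0377), and *Vac14*, the scaffold of the PIKfyve lipid kinase, rose from 42.4 ± 2.04 to 56.0 ± 3.17 CPM (0.40 ± 0.08, adjusted p = 0.0367). Among the 9 cargo genes, 0 passed without the block in edgeR, where 4 had an unadjusted p under 0.05 (24.9% of all tested genes), and 2 passed in DESeq2 and 1 in limma-voom. With the block, 3 of them rose and 4 fell, beside 13.6% and 13.6% of all tested genes. The cargo receptor *Igf2r* was at 529 ± 16.8 CPM in si-NC and 639 ± 21.6 CPM in si-*Snhg18* (0.27 ± 0.06, adjusted p = 0.0526 without and 0.0146 with the block). *Wls* was at 412 ± 63.9 and 543 ± 104 CPM, with adjusted p-values of 0.220 and 0.00535, and *Sort1*, a sorting receptor, had a log2 fold change of 0.52 ± 0.29 (0.314 and 0.00528). The 4 that fell with the block were the receptors *Sorl1*, *Lrp1* and *Tfrc* and the metal transporter *Slc11a2*. *Sorl1*, at a low 2.64 ± 1.12 and 1.10 ± 0.38 CPM, had a log2 fold change of -1.24 ± 0.41 (adjusted p = 0.126 without and 0.0133 with the block). *Lrp1* was at 4870 ± 166 and 4324 ± 229 CPM (-0.17 ± 0.07, adjusted p = 0.191 and 0.0407), and *Slc11a2* and *Tfrc* had log2 fold changes of -0.33 ± 0.09 (0.0877 and 0.0267) and -0.22 ± 0.21 (0.558 and 0.0293).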

How the data were processed

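RNA of mPASMCs was sequenced in 6 libraries. The authors used the TruSeq Stranded mRNA kit and deposited whole-number counts of reads per gene with the exon length of each gene. The submitters' processing notes name HISAT2 and mm10, and the counting program, strand setting and read filters are not given in the sources used here. All count columns belonged to these libraries (0 of other samples), and groups and numbers came from the labels.

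Genes kept by filterByExpr (minimum count 10) were normalized by TMM and compared with glmQLFit and glmQLFTest in edgeR 4.0.16 (R 4.3.3), with Benjamini-Hochberg adjustment over the 14531 genes. The common biological coefficient of variation was 0.218. The floor of 3 reads covers counting error only, while the SD and SE reflect the spread between these libraries. An exact permutation test of 3 against 3 libraries cannot give a p under 0.1.

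The members and gene lists were chosen with earlier results of these data known. The text names *Snhg18*, the retromer core, each member that passed without the block, the 3 largest rises and falls, the 3 highest and lowest levels per kb, the most expressed member of each group and up to 3 partner genes per direction that passed. All others named, including those that passed only with the block, were chosen after their values were seen.

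Pairing comes from the repeat numbers in the labels. Deviations from the group means correlated between same-numbered libraries over all tested genes, with r of 0.41, 0.742 and 0.359 for numbers 1, 2 and 3. Deviations from the mean of 3 libraries sum to 0. A shift shared only by the libraries numbered 2 would therefore also raise r for numbers 1 and 3. Libraries of differing numbers were not compared. Alternatives were the replicate block, RLE factors, library totals, other filters on low counts, DESeq2 1.42.0, limma-voom (limma 3.58.1) and leaving out each library.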

Additional observations from a re-analysis of the deposited data

How the results depend on the processing

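The number of members lower in si-*Snhg18*, 5 with *Vps26a*, was 3 without a filter on low counts and 3 in limma-voom, and ran from 0 to 9 when 1 library was left out. The number that were higher, 4, became 16 with the replicate block and ran from 0 to 12. Over all genes the 1069 calls became 2115 in DESeq2 and 3954 with the block, and ran from 0 to 3282. The 3 partner genes became 1 without a filter, 5 with a minimum of 1 CPM, 9 in DESeq2, 5 in limma-voom, 24 with the block, and 0 to 19 with a library left out. The median of the members, 0.107, ran from 0.069 (without si-*Snhg18* 2) to 0.12. *Snhg18* ran from -1.14 to -1.06 with 1 library left out, and its adjusted p from 0.00474 to 0.0703. *Vps26a* kept its direction under every alternative run (-1.11 to -1.02 with a library left out), and the difference in its share of the paralog sum ran from -6.92 to -5.41 points. For *Vps26b* these values ran from -0.58 to -0.50 (edgeR adjusted p from 0.0114 to 0.111). Those of *Vps26c* ran from -0.53 to -0.47 (0.00946 to 0.111) and those of *Snx8* from 0.82 to 0.89 (0.00529 to 0.0753). The adjusted p also crossed 0.05 for *Vps29* (0.0395 to 0.205), *Chmp5* (0.0332 to 0.207), *Vps41* (0.0286 to 0.197), *Snx15* (0.00747 to 0.15) and *Vps9d1* (0.00622 to 0.101). Signs changed for 8 genes, with log2 fold changes of -0.05 to 0.20, none of which passed the threshold. Leaving out a library gave -0.034 to 0.022 for *Vps35*, -0.024 to 0.024 for *Vps35l* (-0.0062 without a filter), -0.16 to 0.059 for *Snx9*, -0.023 to 0.21 for *Vps53*, -0.033 to 0.22 for *Snx25*, -0.050 to 0.36 for *Vps13c*, -0.013 to 0.17 for *Vps4a* and -0.011 to 0.098 for *Washc5*. Of 546 values for 42 genes under alternatives, 444 kept direction and side of the threshold, 60 lost it, 29 gained it and 13 changed sign. The cause was not tested.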

Other observations

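Several members varied more with the library number than with the siRNA. *Vps13c*, a lipid transfer protein of late endosomes and lipid droplets, was at 122 and 155 CPM in the libraries numbered 2 of si-NC and si-*Snhg18*, and between 90.8 and 109 CPM in the other 4. The endocytic nexins *Snx18* and *Snx9* went opposite ways, with 158 and 189 CPM against 128 to 141 CPM for *Snx18*, and 338 and 320 CPM against 405 to 436 CPM for *Snx9*. *Snx21* was at 33.4 and 35.3 CPM in the libraries numbered 2 and at 46.6 to 57.8 CPM in the others. These genes were chosen after their values were seen.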
